A study of Mus musculus with 8 samples.

Results

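Integrins are receptors made of an alpha and a beta chain that bind matrix proteins outside the cell. Inside the cell, talin binds the beta tail and ties it to actin, and adaptors such as paxillin and the complex of integrin-linked kinase (ILK) with PINCH and parvin gather there as a focal adhesion. In the neonatal lung these contacts anchor myofibroblasts, endothelium and epithelium to the matrix of the growing septa. Described here are the genes of this machinery, chosen by name: every probe set with 1 annotated symbol that begins as an integrin alpha or beta chain symbol does, and those of 11 named partners. The rule itself uses no measured value. It gave 45 probe sets of 29 genes, out of 8252 genes named by 1 symbol on the array. Of the 29, 19 were integrin chains (12 alpha, 7 beta), 1 was the integrin-binding protein gene Itgb1bp1, and 9 were partners or ligands. The partners Ptk2 and Parva were not analysed here.

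Tips of secondary alveolar septa, laser-captured from frozen lung sections of C57/Bl6 mice at postnatal day 6 (10000 tips per the design text), were set against pooled whole lung of the same age and strain. The labels give no genetic change or treatment for any animal. There were 2 RNA samples per group, from experiment 1 and experiment 2 with different litters, and each RNA was hybridised to 2 arrays, here called array 1 and array 2, at different times. Whole lung also contains septal tips, and both sample types are mixtures of cell types, so fewer cells of a type and less RNA per cell cannot be told apart. The labels record amplification for every tip array and for 1 of the 4 lung arrays, whereas the design text states it for both tissues.

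Levels are signals, the linear brightness of a probe set. Each difference is the mean of log2(signal + 150.09) in tips less that in lung, a scale that understates the change of dim probe sets. It is given ± the moderated standard error of limma. That error rests on the 2 RNA samples a group and on the spread of other probe sets of like brightness. Background was taken on each array as the 95th percentile over 19 bacterial and yeast controls, and it lay between 487 and 1244 on tip arrays and between 314 and 568 on lung arrays. Of all probe sets, 41.0% to 61.9% exceeded it on tip arrays and 49.5% to 62.4% on lung arrays. The median signal was also higher on tip arrays, at 786 to 923 against 501 to 571 on lung arrays, and the part of these shifts in the differences was not tested. A change was called where the limma adjusted p over all 7453 probe sets tested was under 0.05. The 95th percentile of signal was lower on tip arrays, at 6127 to 6805 against 8868 to 9155 on lung arrays. The median difference of all probe sets tested was 0.35. It was 0.47 with no filter on dim probe sets and 0.2 with a filter at the 60th percentile, so it moved with brightness. A member near 0.35 therefore need not stand where probe sets of its own brightness stood.

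The adaptor genes Pxn and Tln1, the kinase-like scaffold gene Ilk, and Itgb1bp1 rose in tips at 1 or more probe sets. Of the receptor chains, Itgb5, Itga7, Itga3 and Itgb2l did so. Itgb5 and Itga7 did not pass at their brightest tested probe set (adjusted p = 0.0634 and 0.0520). Ilk, Itga7, Itga3 and Itgb2l did not pass under quantile, median or cyclic loess scaling. Lung was under background on all 4 arrays for Itgb2l and for the called probe set of Itgb5. Lims1, which encodes PINCH-1, the binding partner of ILK, fell. Itgb1, the shared beta chain of most matrix integrins, and Fn1, the fibronectin gene, did not pass the test. Of the 45 probe sets, 29 (of 21 genes) were bright enough to be tested, and 9 of them rose, 1 fell and 19 did not pass. These are 31.0% and 3.45% of the tested members, beside 14.5% higher and 13.7% lower (28.3% in either direction) among all probe sets tested. With each gene taken at its brightest tested probe set, 6 of 21 genes rose and 1 fell, beside 14.6% and 15.1% (29.7% in either direction) of all genes, and their median difference was 0.59. The median difference of the tested members was 0.85. All 4 tip arrays lay above all 4 lung arrays for 12 of the 29 (41.4%) and below them for 2 (6.90%), beside 24.1% and 18.0% of all probe sets tested. A probe set bright only in tips could enter the test through the tips alone, so these shares describe the members and do not test them.

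The counts moved with the scaling. Quantile normalization left 5 member probe sets higher and 0 lower, beside 8.24% and 13.8% of all probe sets. Under median centring 3 rose and 1 fell (3.64% and 20.3%), and cyclic loess called 7 higher and 1 lower (10.8% and 15.5%). Without the lung RNA of experiment 1, 0 rose and 1 fell (0.966% and 3.72% of all), and without that of experiment 2, 2 rose and 0 fell (2.32% and 5.14%). Without the tip RNA of experiment 2, 13 rose and 2 fell, beside 1866 and 1458 of all 7453 probe sets. In such fits the lone sample is assumed to vary as those of the other group do.

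**Figure D1:**
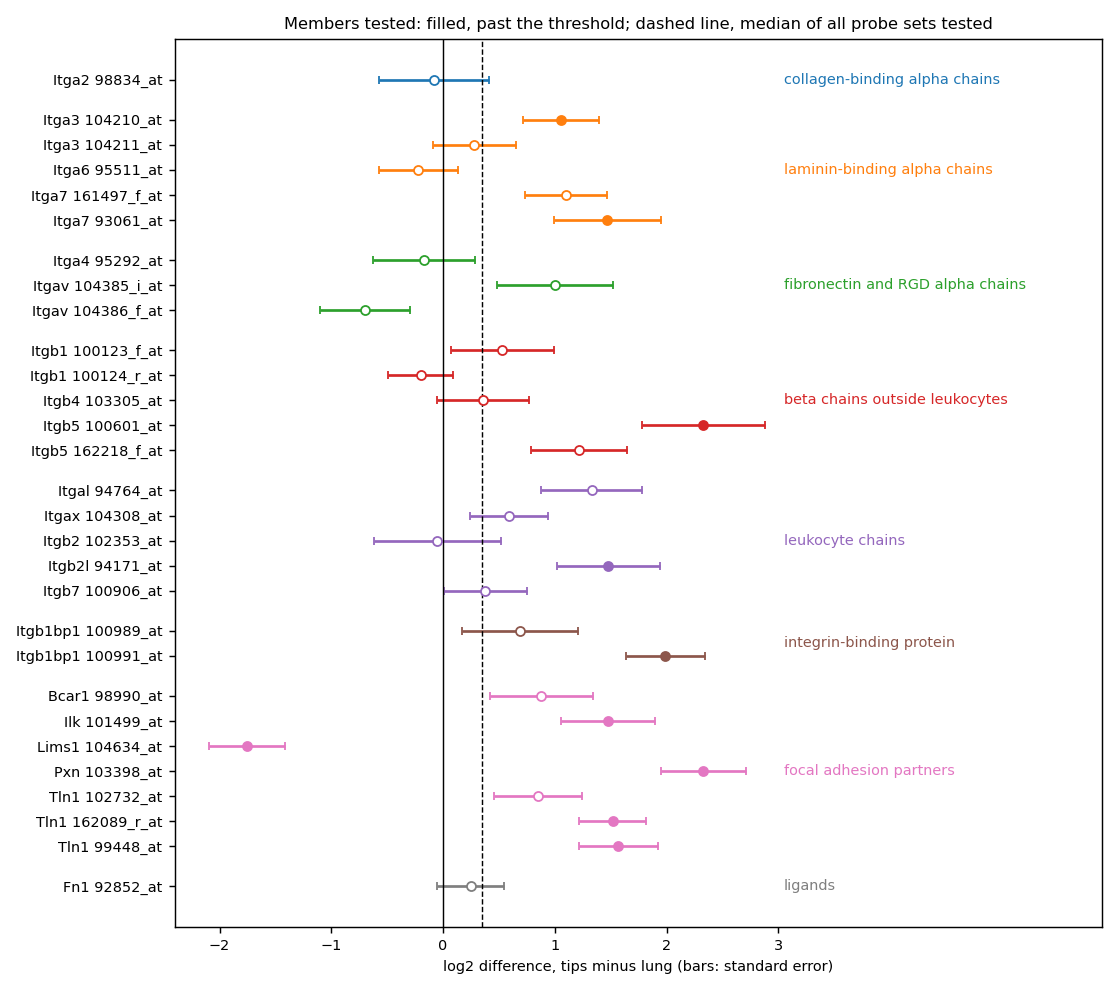
Log2 difference of tips minus lung (horizontal axis) for the 29 member probe sets tested, grouped by role. Points are means over 2 RNA samples per group, bars are moderated standard errors, and filled points passed the adjusted p of 0.05. The solid line marks 0 and the dashed line the median of all probe sets, 0.35. The filled points lie to the right of both lines except Lims1 at -1.75.

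Among the receptors, 2 of 5 tested probe sets of laminin-binding alpha chains rose, in Itga7 and Itga3. Itga7, an alpha chain of muscle cells that pairs with beta1, had 3 probe sets. At 93061_at the signals were 2038 and 3983 on the arrays of tip RNA 1 and 2817 and 491 on those of tip RNA 2, against 346 and 514 for lung RNA 1 and 549 and 1129 for lung RNA 2. The groups overlapped, since array 2 of tip RNA 2 was under background and dimmer than 3 of the 4 lung arrays. The difference was 1.47 ± 0.48 (adjusted p = 0.0480), with 2.39 in experiment 1 and 0.54 in experiment 2. The call was lost without either lung RNA (1.11, adjusted p = 0.332, and 1.83, adjusted p = 0.133) or without tip RNA 1 (0.90, adjusted p = 0.106) or its array 2 (1.24, adjusted p = 0.0968), while without tip RNA 2 it was 2.03 (adjusted p = 0.00133), and 6 of 20 alternatives kept it. The probe set 161497_f_at gave 1.10 ± 0.37 (adjusted p = 0.0520). It passed when the experiment entered as a replicate block (adjusted p = 0.0349) and without tip RNA 1 or 2 (0.0454 and 0.0261). It did not pass without lung RNA 1 (1.48, adjusted p = 0.127) or 2 (0.72, adjusted p = 0.365) or under the 3 other scalings (adjusted p = 0.126 to 0.337), and 6 of 20 alternatives called it. The remaining one, 160086_at, was too dim to be tested. It lay under background on all 4 lung arrays and above it on 2 of 4 tip arrays, with signals of 396 to 1531 in tips and 69.7 to 89.6 in lung.

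Itga3, the laminin receptor chain of epithelial cells, had signals at 104210_at of 2483 and 1646 for tip RNA 1 and 1431 and 2753 for tip RNA 2, against 710 and 1038 for lung RNA 1 and 1069 and 766 for lung RNA 2. Every tip array was above every lung array. The difference was 1.06 ± 0.34 (adjusted p = 0.0456), and it passed under 8 of 20 alternatives. Leaving out lung RNA 1 or 2 gave an adjusted p of 0.281 or 0.234, and it was 0.0537 without array 2 of tip RNA 1, the array with the highest background. A further probe set of Itga3, 104211_at, gave 0.28 ± 0.37 (adjusted p = 0.588). Itga6, which pairs with beta1 or beta4 in epithelium and endothelium, gave -0.22 ± 0.35 (adjusted p = 0.650), and the collagen-binding chain Itga2 gave -0.08 ± 0.49 (adjusted p = 0.912).

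None of the 3 tested probe sets of alpha chains that bind fibronectin or ligands with the RGD motif passed the test, and for Itgav the probe sets disagreed. Itgav, the chain shared by the integrins that release latent TGF-beta, was represented at its brightest by 104386_f_at. Its signals were 12716 and 9260 for tip RNA 1 and 23124 and 23020 for tip RNA 2, against 26931 and 27914 for lung RNA 1 and 24864 and 23496 for lung RNA 2. All tip arrays were lower, by much in experiment 1 and by little in experiment 2 (differences of -1.33 and -0.07). The difference was -0.70 ± 0.40 (adjusted p = 0.207, interval at 95% -1.60 to 0.21). A further probe set annotated to the same sequence record, 104385_i_at, gave 1.00 ± 0.52 (adjusted p = 0.166) the other way. Without tip RNA 2 these became -1.23 (adjusted p = 0.0132) and 1.72 (adjusted p = 0.00251), each past the threshold in its own direction, and without tip RNA 1 they were -0.16 (adjusted p = 0.747) and 0.28 (adjusted p = 0.613).

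Itga8, the nephronectin receptor chain of lung mesenchyme and smooth muscle, was too dim to be tested. At 100313_at it had signals of 339 and 1230 for tip RNA 1 and 670 and 483 for tip RNA 2, against 233 and 207 for lung RNA 1 and 422 and 254 for lung RNA 2. The groups overlapped, and 1 tip array and 0 lung arrays were above background. Its other probe set, 100314_f_at, had signals of 90.9 to 223 in tips and 62.8 to 327 in lung. Itga5, the classical fibronectin receptor chain, was under background on all 8 arrays, with 61.3 to 337 in tips and 28.8 to 51.7 in lung. Itga4, which binds VCAM-1 and fibronectin, was tested at 95292_at and gave -0.17 ± 0.46 (adjusted p = 0.793).

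Of the beta chains outside leukocytes, Itgb5 rose and the others did not pass. Itgb5 encodes the beta5 chain, which pairs with alpha v as a vitronectin receptor. At 100601_at its signals were 2068 and 5434 for tip RNA 1 and 2118 and 421 for tip RNA 2, against 256 and 255 for lung RNA 1 and 287 and 195 for lung RNA 2. All 4 tip arrays were higher, but array 2 of tip RNA 2 was under background, as were all 4 lung arrays. The difference was 2.33 ± 0.55 (adjusted p = 0.0159). With each lung array raised to its background and the tip arrays left as measured, tips were 3.53-fold brighter. With values under 792, the second highest background, set to that level in both groups, the difference was 1.27 (adjusted p = 0.0967). Without a floor it passed under quantile, median and cyclic loess scaling alike. Without tip RNA 1 it was 1.52 (adjusted p = 0.0291) and without tip RNA 2 it was 3.15 (adjusted p = 7.54e-05). Leaving out lung RNA 1 or 2 gave 2.36 (adjusted p = 0.117) or 2.30 (adjusted p = 0.107), and with values under 1244, the highest background of any array, set to that level it gave 0.84 (adjusted p = 0.180). The other probe set of Itgb5, 162218_f_at, was above background on all arrays and gave 1.22 ± 0.43 (adjusted p = 0.0634). It passed under the replicate block (adjusted p = 0.0274) and without tip RNA 2 (1.84, adjusted p = 0.000888), was 0.60 without tip RNA 1 (adjusted p = 0.182), and was called under 3 of 20 alternatives.

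Itgb1, brightest at 100123_f_at, had signals of 148772 and 126887 for tip RNA 1 and 157644 and 140815 for tip RNA 2, against 101371 and 97061 for lung RNA 1 and 112264 and 87544 for lung RNA 2. Every tip array was above every lung array, and the group means were 143530 ± 8061 in tips and 99560 ± 487 in lung (SD, n = 2). The difference of 0.53 ± 0.46 did not pass (adjusted p = 0.394, interval -0.51 to 1.56). With no intensity trend in the fit its standard error was 0.33 (adjusted p = 0.254). The difference was 1.59 with cyclic loess (adjusted p = 0.0264) and -0.01 with median centring. The second probe set, 100124_r_at, gave -0.20 ± 0.29 (adjusted p = 0.617). Itgb4, the beta chain of hemidesmosomes, gave 0.36 ± 0.41 (adjusted p = 0.527). Itgb3, the beta chain of platelets and angiogenic endothelium, was under background on all 8 arrays and was not tested. Its signals were 373 and 289 for tip RNA 1 and 126 and 246 for tip RNA 2, against 71.2 and 110 for lung RNA 1 and 101 and 305 for lung RNA 2, and the groups overlapped.

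The leukocyte chains were mostly dim. Itgb2l, a beta2-like chain described in mouse granulocytes, was the 1 of 5 tested that rose. Its signals were 1416 and 1065 for tip RNA 1 and 937 and 714 for tip RNA 2, against 247 and 212 for lung RNA 1 and 328 and 274 for lung RNA 2. All tip arrays were higher, but lung was under background on all 4 arrays and tips on 2. The difference was 1.48 ± 0.46 (adjusted p = 0.0413). With values floored at 1244 it was 0.04 (adjusted p = 0.526), and with a floor of 792 it was 0.33 (adjusted p = 0.217). It passed under 7 of 19 alternatives, under none of the 3 other scalings, and without lung RNA 1, lung RNA 2 or tip RNA 1 the adjusted p was 0.283, 0.203 and 0.0689. Without array 2 of tip RNA 1 it was 0.0652.

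Itgal, the LFA-1 alpha chain of lymphocytes, gave 1.33 ± 0.45 (adjusted p = 0.0524), and Itgax, the alpha chain of dendritic cells and alveolar macrophages, 0.59 ± 0.35 (adjusted p = 0.214). Itgal was 0.0353 without tip RNA 1 and 0.0424 without array 2 of tip RNA 1, and so passed in those fits, among 4 of 19 alternatives. It was 0.0602 without tip RNA 2, and 0.280 and 0.289 without lung RNA 1 or 2. Itgb2, the beta chain that partners Itgal and Itgax, gave -0.05 ± 0.57 (adjusted p = 0.954), with -1.02 in experiment 1 and 0.92 in experiment 2. Itgb7 gave 0.38 ± 0.37 (adjusted p = 0.455) at its tested probe set. Itgae and Itgam were not tested, and Itgam was under background on all 8 arrays. Beside these chains, 7 of 8 leukocyte markers were tested. Ptprc, Laptm5 and Lcp1 fell by 1.95, 1.39 and 1.02 while Cd52 rose by 1.35, beside 14.6% higher and 15.1% lower of all genes. A further probe set of Laptm5 gave 0.82 (adjusted p = 0.199). Without either lung RNA, 0 of the 7 rose and 0 fell. The summed signal of the 8 ran from 23527 to 27467 on tip arrays and from 43007 to 63099 on lung arrays. Of these sums, Laptm5 at its brightest probe set alone averaged 15233 ± 1793 in tips and 41004 ± 13381 in lung (SD, n = 2). The part of leukocyte content in the values of these chains was not tested.

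On the cytoplasmic side, paxillin showed the largest difference of any partner. Pxn encodes the adaptor that recruits kinases and other signalling proteins to integrins. Its signals were 3383 and 2909 for tip RNA 1 and 3280 and 2374 for tip RNA 2, against 438 and 254 for lung RNA 1 and 442 and 880 for lung RNA 2. The groups did not overlap, with 2 of 4 lung arrays and 0 of 4 tip arrays under background. The difference was 2.33 ± 0.38 (adjusted p = 0.00387), with 2.75 in experiment 1 and 1.91 in experiment 2. It passed under 19 of 20 alternatives, the exception being the fit without the lung RNA of experiment 1 (1.99, adjusted p = 0.0613).

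Tln1, which encodes talin-1, the activator that binds beta tails and links them to actin, had 3 probe sets that all differed in the same direction. At 162089_r_at the signals were 28603 and 27318 for tip RNA 1 and 27597 and 28769 for tip RNA 2, against 9649 and 11454 for lung RNA 1 and 8388 and 9425 for lung RNA 2. The 4 tip arrays lay close together and well above every lung array. The difference was 1.52 ± 0.30 (adjusted p = 0.00799). At 99448_at the signals were 3292 and 1902 for tip RNA 1 and 2334 and 2507 for tip RNA 2, against 753 and 915 for lung RNA 1 and 1431 and 239 for lung RNA 2, a difference of 1.57 ± 0.35 (adjusted p = 0.0121). Again no array of the groups overlapped, and array 2 of lung RNA 2 was under background. The probe set 102732_at gave 0.85 ± 0.39 and did not pass (adjusted p = 0.122). The calls at 162089_r_at and 99448_at were lost with median centring (adjusted p = 0.0630 and 0.0648). They were also lost without lung RNA 1 (adjusted p = 0.0589 and 0.0968) and without lung RNA 2 (adjusted p = 0.0762 and 0.128).

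Itgb1bp1 encodes ICAP-1, which binds the beta1 tail and competes there with talin. Its probe set 100991_at had signals of 5254 and 5316 for tip RNA 1 and 5049 and 3337 for tip RNA 2, against 1949 and 285 for lung RNA 1 and 1685 and 1122 for lung RNA 2. All tip arrays were higher, and array 2 of lung RNA 1 was under background. The difference was 1.99 ± 0.35 (adjusted p = 0.00524), and it passed in every alternative except the one without the lung RNA of experiment 1 (1.65, adjusted p = 0.0698). At 100989_at it gave 0.69 ± 0.52 (adjusted p = 0.327), or 1.41 without tip RNA 1, which passed (adjusted p = 0.0118), and -0.03 without tip RNA 2 (adjusted p = 0.961).

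Of the ILK complex, Ilk rose and Lims1 fell, and the parvin gene Parva was not analysed here. None of quantile, median and cyclic loess scaling called both. Lims1 was much the brighter, with a mean lung signal of 37078 against 638 for Ilk. The part of brightness in this contrast was not tested. Ilk, whose product is a scaffold between beta tails, PINCH and parvin, had signals of 3148 and 2582 for tip RNA 1 and 1716 and 1213 for tip RNA 2, against 608 and 792 for lung RNA 1 and 630 and 520 for lung RNA 2. All arrays were above background and the groups did not overlap. The difference was 1.48 ± 0.42 (adjusted p = 0.0293), lost with quantile, median and cyclic loess scaling (adjusted p = 0.107, 0.126 and 0.0822) and on leaving out lung RNA 1 or 2 (0.163 and 0.197). Lims1 had signals of 9018 and 8906 for tip RNA 1 and 15026 and 11320 for tip RNA 2, against 35476 and 29575 for lung RNA 1 and 46159 and 37101 for lung RNA 2. Every tip array was below every lung array. Lims1 fell by 1.75 on the log2 scale, with a standard error of 0.34 (adjusted p = 0.00742), and the experiments gave -1.84 and -1.65. It passed under 18 of 20 alternatives, the exceptions being quantile normalization (-1.04, adjusted p = 0.0543) and the fit without the lung RNA of experiment 2 (-1.57, adjusted p = 0.0612).

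**Figure D2:**
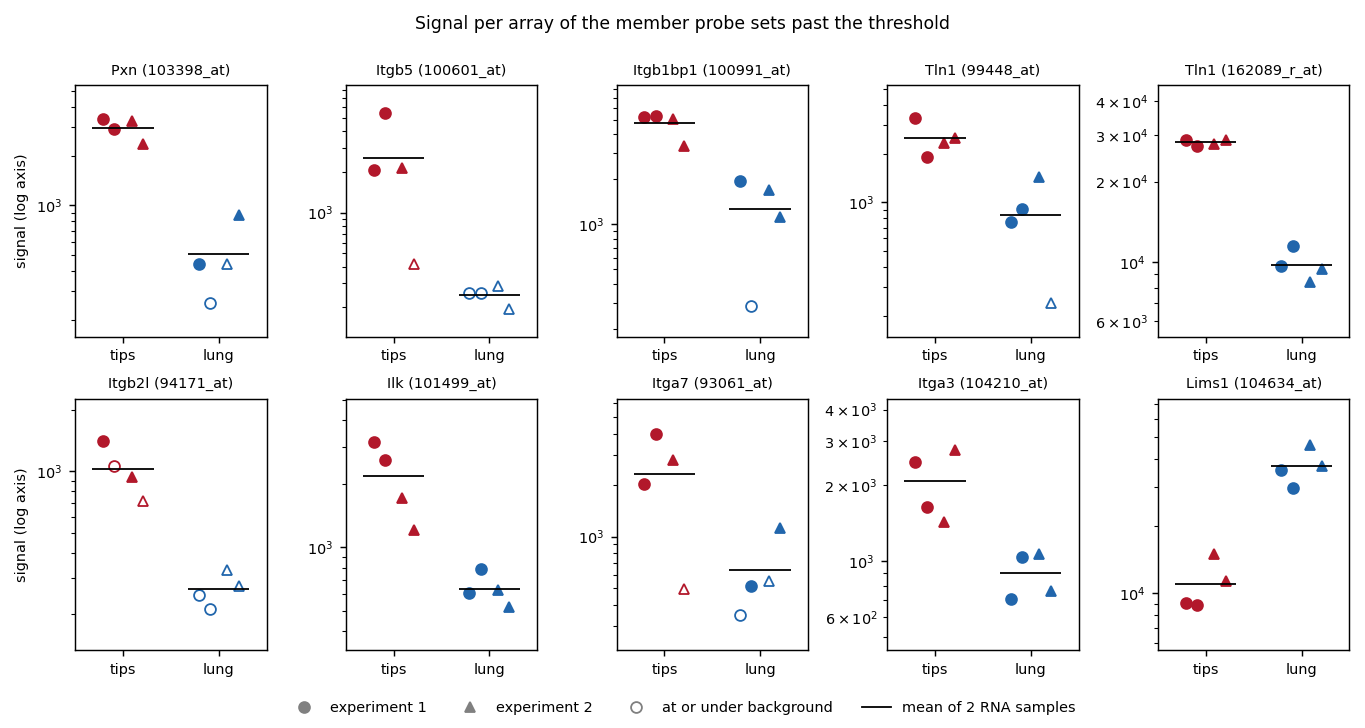
Signal per array (vertical log axis, a separate range per panel) of the 10 member probe sets past the threshold, with tips left of lung. Circles are experiment 1, triangles experiment 2, open symbols lie at or under the background of their array, and bars are means of 2 RNA samples. Tip and lung arrays separate in 9 panels and overlap in Itga7, and Lims1 alone is lower in tips.

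The remaining partners did not pass or were too dim. Bcar1, the p130Cas scaffold phosphorylated by Src, gave 0.88 ± 0.46 (adjusted p = 0.168), and 1.37 without tip RNA 2, which passed (adjusted p = 0.0106). Without tip RNA 1 it was 0.39 (adjusted p = 0.464). Src, a tyrosine kinase of adhesions, was not tested and had signals of 276 to 1427 in tips and 82.9 to 548 in lung. Crk, an adaptor that binds phosphorylated paxillin, was under background on all 8 arrays. Among the ligands, Fn1 had signals of 17748 and 15378 for tip RNA 1 and 16998 and 16394 for tip RNA 2, against 13049 and 11996 for lung RNA 1 and 15408 and 15842 for lung RNA 2. The groups overlapped, since both arrays of lung RNA 2 lay above the dimmest tip array. The difference was 0.25 ± 0.30 (adjusted p = 0.561, interval -0.44 to 0.93). Cyclic loess gave 0.97 (adjusted p = 0.0387) and quantile normalization 0.92 (adjusted p = 0.0631). Vtn, the gene of the plasma protein vitronectin made mainly in liver, was under background on all 8 arrays, at 42.6 to 186 in tips and 36.2 to 81.7 in lung. In all, 16 probe sets were not tested. For 8 genes this left no tested probe set: Itga5, Itga8, Itgae, Itgam, Itgb3, Src, Crk and Vtn.

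**Figure D3:**
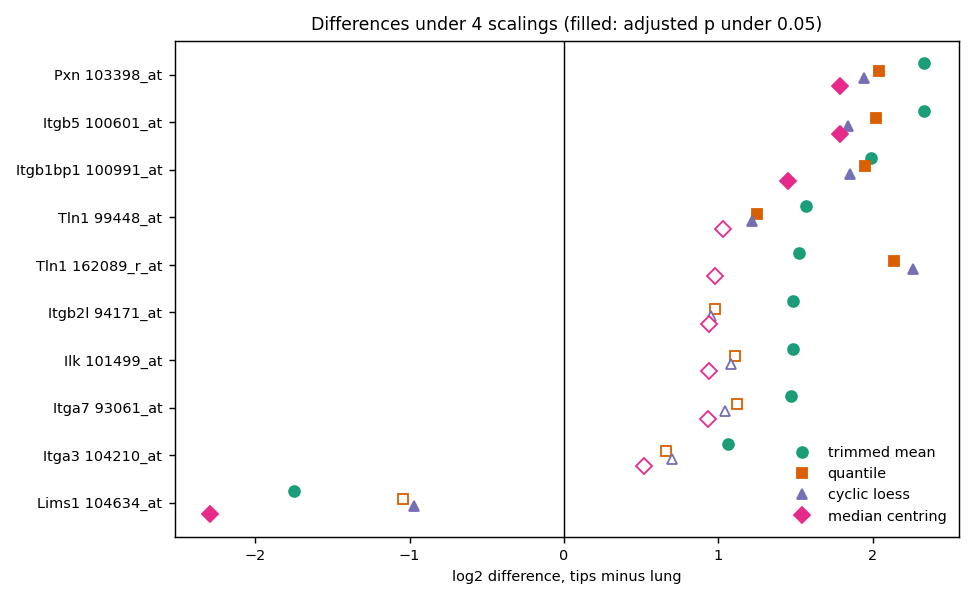
Log2 difference of tips minus lung (horizontal axis) for the 10 called member probe sets under 4 ways of bringing the arrays to a common level, filled where the adjusted p was under 0.05. Pxn, Itgb5 and Itgb1bp1 are filled under all 4, and every point keeps the sign it has with the trimmed mean.

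Promoter sequences were looked up for 6 members that changed and matched for 5 of them, Tln1, Ilk, Itgb5, Itgb1bp1 and Lims1, with Pxn the other. They are windows of 300 bases of the RefSeq annotation of GRCm38.p6, mostly upstream of the first annotated start (of 3 for Lims1). Searched on both strands, with overlapping matches counted, were the GC box (GGGCGG), an ETS site (CCGGAAGT), an AP-1 site (TGANTCA) and the CArG box of serum response factor. Of all 32851 promoter windows, 35.7% held the GC box, 3.89% the ETS site, 7.81% the AP-1 site and 1.63% the CArG box. The windows of Tln1 and Ilk held none of the 4 motifs in these letters. Itgb5 at chr16:33829415-33829714 (plus strand) and Lims1 at chr10:58323297-58323596 (plus strand) held 3 GC boxes each. Whether the motif goes with the direction of change was not tested. Itgb1bp1 at chr12:21286235-21286534 (minus strand) held 2 ETS sites. These 3 windows are shown because they hold matches, which stand in capitals, and a match describes letters and not a used site.
Itgb5: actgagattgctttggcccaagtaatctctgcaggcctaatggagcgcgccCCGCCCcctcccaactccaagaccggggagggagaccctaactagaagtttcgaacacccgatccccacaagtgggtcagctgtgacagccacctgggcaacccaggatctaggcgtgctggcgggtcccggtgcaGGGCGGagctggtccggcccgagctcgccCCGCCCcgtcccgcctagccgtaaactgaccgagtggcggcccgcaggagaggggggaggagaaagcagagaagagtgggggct
Itgb1bp1: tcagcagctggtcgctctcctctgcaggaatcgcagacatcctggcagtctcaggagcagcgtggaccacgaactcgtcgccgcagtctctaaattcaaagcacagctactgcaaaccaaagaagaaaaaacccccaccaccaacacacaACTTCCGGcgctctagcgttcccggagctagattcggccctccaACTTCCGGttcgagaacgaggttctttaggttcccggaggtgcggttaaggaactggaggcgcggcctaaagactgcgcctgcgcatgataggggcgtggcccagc
Lims1: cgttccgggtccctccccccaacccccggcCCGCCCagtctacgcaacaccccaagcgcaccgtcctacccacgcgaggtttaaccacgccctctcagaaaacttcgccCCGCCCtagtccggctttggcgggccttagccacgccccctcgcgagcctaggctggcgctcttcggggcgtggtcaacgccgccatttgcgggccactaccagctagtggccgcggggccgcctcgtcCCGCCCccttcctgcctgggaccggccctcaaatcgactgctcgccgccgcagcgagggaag

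The adhesion genes around these members were followed in 4 further lists, each gene by its brightest tested probe set. Over all 5642 genes so tested, 14.6% rose, 15.1% fell and the median difference was 0.31, and each list's counts stand beside those shares. Under other settings they stand beside the shares of all probe sets, such as 3.64% higher and 20.3% lower with median centring. These shares were 17.4% and 15.5% with the replicate block, and 3.92% and 8.19% with values floored at the highest background of any array. For the other settings used with the lists, shares or counts of all probe sets are given above. Of 27 focal adhesion adaptors and kinases, 5 rose, 3 fell and 19 did not pass, with a median of -0.13, and these counts are near the shares of all genes. Git1 and Arhgef7, whose products form the GIT-PIX complex that binds paxillin, rose by 2.69 ± 0.40 (adjusted p = 0.00258) and 1.12 ± 0.35 (adjusted p = 0.0410). Git1 averaged 2790 ± 396 in tips and 330 ± 160 in lung (SD, n = 2). Vasp, an actin polymerase of adhesions, rose by 2.56 ± 0.43 (adjusted p = 0.00422), while its relative Enah fell by 1.13 ± 0.30 (adjusted p = 0.0245), with -0.15 at another probe set. Csrp1, a LIM protein of actin bundles, rose by 3.13 ± 0.37 (adjusted p = 0.00130). Fermt2, which encodes kindlin-2, the co-activator that binds beta tails together with ILK, fell by 1.53 ± 0.31 (adjusted p = 0.00820), as Lims1 did. It averaged 2682 ± 615 in tips and 7802 ± 181 in lung. Lpp, a zyxin relative, fell by 1.37 ± 0.37 (adjusted p = 0.0251). With median centring the list counted 3 higher and 11 lower (3.64% and 20.3% of all probe sets), and the replicate block gave 6 and 7. Without lung RNA 1 the counts were 2 and 0, and without lung RNA 2 they were 3 and 0. Without tip RNA 2 they were 7 and 8.

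Of 19 tested genes of signalling downstream of integrins, 1 rose, 7 fell and 11 did not pass, with a median of -0.38, beside 14.6% higher and 15.1% lower of all genes. For 1 of the 7 a further probe set passed in the opposite direction. Rock1, a kinase gene of actomyosin contraction, fell by 2.15 ± 0.39 (adjusted p = 0.00561), against 0.87 at 100980_at (adjusted p = 0.154). Map2k1, the kinase MEK1, fell by 1.97 ± 0.40 (adjusted p = 0.00828). Rock1 and Map2k1 were above background on 1 of 4 tip arrays and on all lung arrays. The myosin light chain kinase gene Mylk had the largest decrease, -2.50 ± 0.44 (adjusted p = 0.00508), and the light chain gene Myl9 was the 1 that rose, by 1.22 ± 0.29 (adjusted p = 0.0161). With values floored at 1244 the counts were 1 higher and 1 lower, without lung RNA 1 they were 0 and 0, and without lung RNA 2 they were 0 and 3. Without tip RNA 2 they were 3 and 7.

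Of 28 tested integrin ligands outside the members, 6 rose, 2 fell and 20 did not pass, with a median of 0.69, beside 14.6% higher and 15.1% lower of all genes. Lamb2 and Lama4, laminin chains of basement membranes, rose by 2.20 ± 0.41 (adjusted p = 0.00594) and 1.25 ± 0.34 (adjusted p = 0.0272). Tnc, the tenascin-C gene, rose by 1.90 ± 0.36 (adjusted p = 0.00678), with 0.93 at another probe set (adjusted p = 0.0685). Icam2, a ligand of leukocyte integrins on endothelium, rose by 1.64 ± 0.33 (adjusted p = 0.00789). Vcam1, the ligand of Itga4 integrins, fell by 2.38 ± 0.32 (adjusted p = 0.00180), against 1.30 at another probe set (adjusted p = 0.0533). Lamb3, a chain of epithelial laminin, fell by 1.58 ± 0.36 (adjusted p = 0.0140), against 1.28 at another (adjusted p = 0.0865). Quantile normalization gave 9 higher and 2 lower, median centring 3 and 3 (3.64% and 20.3% of all probe sets), cyclic loess 11 and 2, and the replicate block 9 and 3. Without lung RNA 1 they were 0 and 1, and without lung RNA 2 they were 2 and 1. Without tip RNA 2 they were 13 and 3.

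Membrane proteins that travel with integrins went both ways. Of 13 tested, 4 rose, 2 fell and 7 did not pass, with a median of -0.22. Sdc4, the syndecan that joins focal adhesions, rose by 1.51 ± 0.41 (adjusted p = 0.0253) and Slc3a2, the CD98 heavy chain that binds beta tails, by 1.35 ± 0.31 (adjusted p = 0.0135). The tetraspanin gene Cd151, a partner of laminin-binding integrins such as those of Itga3, rose by 1.07 ± 0.30 (adjusted p = 0.0284), with 1.25 (adjusted p = 0.0227) and 0.59 (adjusted p = 0.244) at other probe sets. Its relative Cd81 rose by 0.92 ± 0.30 (adjusted p = 0.0479). Adam9, a membrane protease with an integrin-binding domain, fell by 2.02 ± 0.35 (adjusted p = 0.00487), and Sdc2 by 1.25 ± 0.31 (adjusted p = 0.0197). With median centring 0 were higher and 5 lower (3.64% and 20.3% of all probe sets), with cyclic loess 3 and 5, and with the replicate block 4 and 4. Without lung RNA 1 they were 0 and 1, and without lung RNA 2 they were 0 and 0. Without tip RNA 2 they were 4 and 4.

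**Figure D4:**
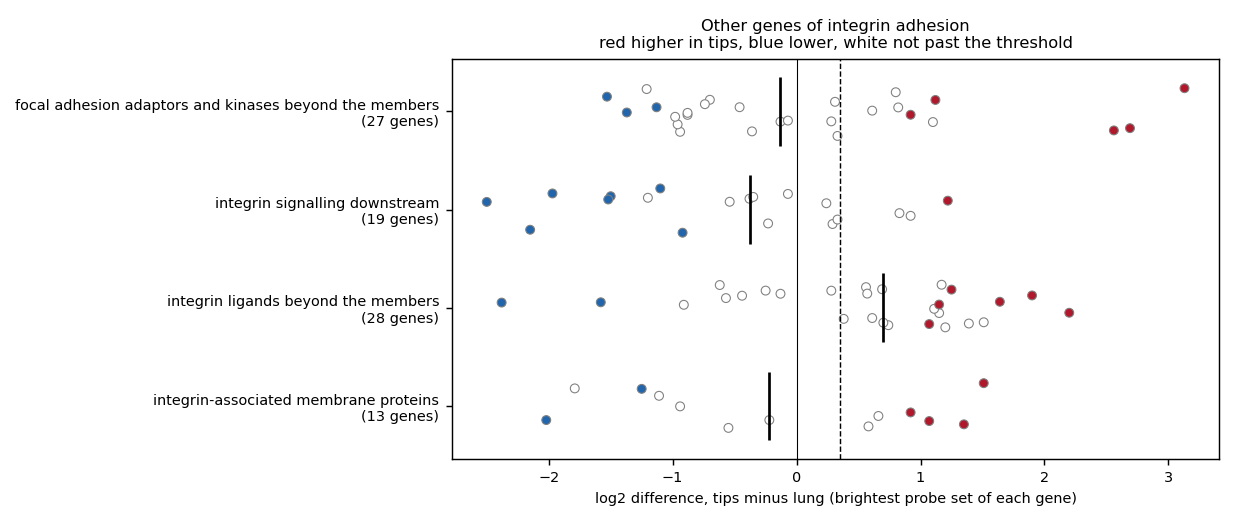
Log2 difference of tips minus lung (horizontal axis) of the brightest tested probe set of each gene in 4 lists around the members. Red points rose, blue points fell, white points did not pass, short black bars are list medians and the dashed line is the median of all probe sets, 0.35. The medians are -0.13, -0.38, 0.69 and -0.22 from the upper to the lower list.

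Markers of cell types that carry these integrins were read beside the same shares of all genes, 14.6% higher and 15.1% lower. Counts cover tested markers, whereas the summed signals cover every listed marker on the array, tested or not. For macrophages the sums cover 7 markers, for platelets 4, for lymphocytes 5 and for mesothelium 4. Of 6 smooth muscle and myofibroblast markers 4 rose and 0 fell, and their summed signal ran from 27987 to 43871 on tip arrays and from 14987 to 39892 on lung arrays. With median centring 2 rose, without lung RNA 1 0 rose and without lung RNA 2 1 rose. Of 8 endothelial markers 4 rose and 2 fell, with sums of 365986 to 377190 in tips and 105927 to 150923 in lung, of which Eng alone averaged 299413 ± 16680 in tips and 77511 ± 17117 in lung. The counts were 1 and 2 with median centring, 1 and 0 without lung RNA 1, and 0 and 1 without lung RNA 2. Of 4 type II cell markers 1 rose and 0 fell (116690 to 141648 in tips, 37565 to 55721 in lung). Of these sums, Sftpc alone averaged 102537 ± 5425 in tips and 27130 ± 8140 in lung. Of 5 macrophage markers tested 0 rose and 2 fell (23352 to 34120 in tips, 42616 to 62944 in lung), and Marco was under background on every array. Ctss alone averaged 4041 ± 444 in tips and 34692 ± 7992 in lung. Cd68, Csf1r and Lyz2 gave 0.72, 0.61 and 0.60 and did not pass, with -0.58 at another probe set of Csf1r. Of 3 platelet markers 0 passed (2572 to 4213 in tips, 1513 to 1804 in lung). Of 2 lymphocyte markers 1 rose (2423 to 5247 in tips, 959 to 1989 in lung), with Cd3e and Cd3d under background on every array, and of 2 mesothelial markers 1 rose (2377 to 6044 in tips, 1896 to 2567 in lung). Without lung RNA 1 the type II, lymphocyte and mesothelial lists had 0 higher and the macrophage list 1 lower, and without lung RNA 2 the type II list had 1 higher. Their part in the differences of the members was not tested.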

How the data were processed

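The authors deposited 1 linear intensity for each probe set and array, with MAS5 named per the submitters' processing notes. The genome build is not given in the sources used here. Array trimmed means (2% left out at each end) lay between 1500.6 and 1501.2. Groups were read from the titles, since GEO's description field calls all 8 arrays whole lung.

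Each array was scaled to a trimmed mean of 1500.9, an offset of 150.09 was added and log2 was taken, which understates differences of dim probe sets. The 66 control probe sets and those under the 40th percentile of mean log2 value (9.20) were left out. Arrays of an RNA were averaged, and tips were compared with lung in limma 3.58.1 (R 4.3.3; lmFit, eBayes with an intensity trend), with Benjamini-Hochberg adjustment over 7453 probe sets and a threshold of 0.05. The fit had 2 residual and 7.05 prior degrees of freedom, and the median standard error was 0.40. The procedure was tested on simulated data. The number of RNA samples, 2 a group, limits the precision, since the arrays of an RNA were averaged.

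Symbols came from the platform annotation, of which 10855 probe sets carried 1 symbol and 10839 of these matched the RefSeq table by gene ID. Probe set names ending in _f_at, _r_at, _i_at, _g_at or _s_at mark probes that other transcripts can share or that met relaxed design rules. Where a group was under background on all arrays, the fold was taken with that group raised to background and the other as measured. It is no strict lower limit where an array of the other group was also under background. The members and gene lists were chosen with earlier results of these data known. Named were the members past the threshold, Itgb1, Itgav, Itga8, Itgb3, Itgb6, Fn1, Tln1, Ptk2 and Ilk whatever their values (Itgb6 and Ptk2 were not analysed here), all other members in brief, and up to 4 called genes per list and direction, of which 1 is not reported here.

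The experiment number pairs the RNA samples, because the design text states that tips and lung of an experiment were processed in parallel. The deviations of same-numbered RNA samples from their group means correlated at 0.0452. Alternatives were other scalings, offsets, filters and floors, no intensity trend, the replicate block, duplicateCorrelation over arrays, arrays of 1 number only, and leaving out each RNA sample or the array with the highest background.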

Additional observations from a re-analysis of the deposited data

Results flagged for a closer look

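Among the tested members, the 4 arrays of a group held an array far from the others in 3 of 58 groups of arrays, and chance alone flags about 1 in 20. Itga4 at 95292_at had a signal of 128 on array 1 of tip RNA 1, while the other tip arrays had 807, 835 and 987. Itgb4 had 740 on array 1 of lung RNA 1, against 902, 909 and 909 on the other lung arrays, a small gap beside a still smaller spread. Itgb1bp1 at 100991_at had 3337 on array 2 of tip RNA 2, against 5049, 5254 and 5316 on the other tip arrays, and it stayed above every lung array there.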

How the results depend on the processing

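The total of 2106 calls was 2452 with the experiment as a replicate block. There 11 member probe sets were higher and 1 lower, beside 17.4% and 15.5% of all probe sets tested. The block changed the calls of Itga7 161497_f_at and Itgb5 162218_f_at and of no other member. Total calls numbered 822 with the floor of 1244 (probe sets at or under a floor on every array left out, a choice made after a first fit with them gave no calls), 1229 on arrays numbered 1 only, and 349 to 3324 with an RNA sample left out. Members higher numbered 5 with quantile normalization, 3 with median centring, 3 with the floor of 1244, 5 with a floor of 792 (added after seeing the data), 3 on arrays numbered 2 only and 0 to 13 with an RNA sample left out, against 9. Members lower numbered 0 with quantile normalization and 0 to 2 with an RNA sample left out, against 1. List genes higher numbered 6 with median centring, 25 with duplicateCorrelation, 8 with the floor of 1244 and 2 to 27 with an RNA sample left out, against 16. List genes lower numbered 27, 22 and 4 in the first 3 of these settings, 7 on arrays numbered 1 only and 2 to 22 with an RNA sample left out, against 14. Without array 2 of tip RNA 1 (added after seeing the data), 7 members were higher and 1 lower.

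No called member changed sign under any alternative run. Uncalled values did: Itga2 gave 0.50 on arrays 2 only, -0.40 to 0.23 with an RNA sample left out and 0.11 with the floor of 792. Itga3 104211_at gave -0.18, -0.26 and -0.14 with quantile, median and loess scaling and -0.27 on arrays 1 only. Itgb4 gave -0.11, -0.18 and -0.09 in those scalings, -0.05 on arrays 1 only and -0.03 to 0.75 with an RNA sample left out. Itga6 gave 0.06 on arrays 2 only and -0.48 to 0.04 with an RNA sample left out, and Itga4 0.28 and -0.57 to 0.22 in those fits and 0.09 with the floor of 792. Itgav 104386_f_at gave 0.07 and 0.09, and Itgb1 100124_r_at 0.35 and 0.39, with quantile and loess scaling. With median centring Itgb1 100123_f_at gave -0.01 and Fn1 -0.30. Itgb7 gave -0.06 and -0.17 with quantile and median scaling. Itgb2 gave 0.01 on arrays 1 only, -0.63 to 0.53 with an RNA sample left out and 0.09 without array 2 of tip RNA 1. Itgb1bp1 100989_at gave -0.03 to 1.41 with an RNA sample left out. The cause of these shifts was not tested. Of 569 comparisons of a member with its main value, 455 kept direction and side of the threshold, 64 lost the call, 19 gained it and 31 changed sign. Only probe sets called in the main fit (9 higher and 1 lower) could lose a call, so all 64 losses fell on them.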
